A study of Homo sapiens with 6 samples.

Results

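MHC class II antigen presentation was examined through 10 of its genes in NALM6 cells, a human cell line from B cell precursor acute lymphoblastic leukemia. They were taken from a given list of 10 symbols, all of which were matched by symbol and Ensembl identifier among the 57905 genes of the count table and the 16730 genes of the FPKM table. RNA sequencing libraries were compared from cells treated for 24 h with 500 nM of THZ1, a covalent inhibitor of the transcriptional kinase CDK7, or with the solvent DMSO, with 3 libraries for each treatment. The labels give no treatment or genotype beyond these for either group, and all libraries are of this single cell line. Nothing in the labels says whether the libraries of a treatment came from separate cultures, so the p-values measure the spread between these libraries, which may be technical.

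MHC class II molecules are heterodimers of an alpha and a beta chain that present peptides from endosomes to CD4+ T cells, and B cells carry them throughout much of their development. New dimers bind the invariant chain CD74 in the endoplasmic reticulum. CD74 is later degraded in endosomes down to a short peptide, CLIP, and HLA-DM exchanges CLIP for antigen peptides. Transcription of these genes is switched on by CIITA, a coactivator without DNA contact of its own, which docks on a complex of RFX5, RFXAP and RFXANK at the X box of each promoter, beside CREB family proteins and NF-Y at the neighboring X2 and Y boxes.

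The libraries of the DMSO-treated cells held 11015480 to 11164840 counts and those of the THZ1-treated cells 7876402 to 8314306. Expression is given as CPM, counts scaled to the library size with TMM factors, which treat the typical gene as stable, and gene positions are on GRCh37. CPM is relative to the other genes of a library, so a rise or fall in it does not give the change in RNA per cell. The 12 listed markers of B cell precursors summed to 4133 to 4269 CPM with DMSO and 2192 to 2257 CPM with THZ1, and none was at 0. Of the 12, 9 were called lower and 2 higher. By the same rule, given below, 41.1% of all genes tested were called lower and 43.5% higher. The marker counts in this paragraph are to be read against these shares. In bulk RNA, fewer cells of a type and less RNA per cell cannot be told apart. Of 8 markers of monocytes and dendritic cells, which also carry class II, the sum was 3.46 to 4.67 CPM with DMSO and 17.6 to 18.0 CPM with THZ1, with 3 of 4 tested higher and 1 lower. Of the 8, 5 had at most 3 counts in each DMSO-treated library and 4 in each THZ1-treated library. CLEC9A was at 0 counts in every DMSO-treated library and ITGAX in every THZ1-treated library. The 8 T and NK cell markers summed to 7.43 to 8.93 CPM with DMSO and 9.89 to 14.8 CPM with THZ1. Most of this sum was NKG7, with 8.07 ± 0.898 CPM and 11.4 ± 2.39 CPM (SD, n = 3 libraries each). NKG7 was the 1 marker of this list that was tested, and it was called higher although its groups overlapped. CD8A and KLRD1 were at 0 in all libraries.

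The promoters are shown first, because the X and Y boxes are known as the shared control elements of these genes. RefSeq start sites on GRCh38.p14 were matched for 8 of the 10 genes, without HLA-DRA and CIITA. The 120 bases before the start site are given 5′ to 3′ for the chain genes in which either string below was found there, and for CD74. Capitals mark ATTGG or its reverse complement CCAAT, the core of the Y box, and TGATGANG, a string chosen from these sequences that lies before it.
HLA-DRB1: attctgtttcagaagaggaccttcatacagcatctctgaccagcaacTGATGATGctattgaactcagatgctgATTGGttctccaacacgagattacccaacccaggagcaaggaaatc
HLA-DPB1: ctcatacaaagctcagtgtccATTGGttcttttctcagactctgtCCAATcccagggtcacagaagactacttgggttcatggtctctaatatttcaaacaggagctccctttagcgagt
HLA-DMA: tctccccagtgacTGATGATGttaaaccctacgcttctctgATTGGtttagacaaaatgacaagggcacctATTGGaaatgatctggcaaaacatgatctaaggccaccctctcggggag
HLA-DMB: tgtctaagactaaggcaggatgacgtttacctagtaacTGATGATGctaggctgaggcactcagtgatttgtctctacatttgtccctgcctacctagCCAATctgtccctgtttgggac
CD74: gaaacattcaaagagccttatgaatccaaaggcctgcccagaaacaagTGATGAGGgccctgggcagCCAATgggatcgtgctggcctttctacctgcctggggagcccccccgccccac
These windows lie at chr6:32589849-32589968 (minus strand) for HLA-DRB1, at chr6:33075870-33075989 (plus strand) for HLA-DPB1, at chr6:32953098-32953217 (minus strand) for HLA-DMA, at chr6:32941029-32941148 (minus strand) for HLA-DMB and at chr5:150412911-150413030 (minus strand) for CD74.

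Both strings were searched on both strands in 300 bases, from 250 before to 50 after each start, and they share no overlap in the windows shown. The 8 matched genes have 11 listed start sites, and ATTGG was found at 6 of these 11, each of another gene, against 34.6% of all 35116 start sites in the RefSeq table. TGATGANG lay before the start site of HLA-DRB1, HLA-DMA, HLA-DMB and CD74, against 3.37% of all start sites with the string anywhere in the 300 bases, but as the string was written with these sequences in view, its presence is a description only. From the end of TGATGANG to the next ATTGG or CCAAT there were 19 bases in HLA-DRB1, 20 in HLA-DMA, 11 in CD74 and 52 in HLA-DMB. HLA-DPB1 held ATTGG and CCAAT but not TGATGANG. For HLA-DPA1, TGATGANG was found only after the second listed start, on the other strand, and neither string was found for RFXAP. The 4 genes that carry TGATGANG before the start include the chain gene with the lowest log2 fold change, the chain gene that was not called and CD74, which was higher.

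Most of these genes had a lower share of the reads with THZ1, whereas the invariant chain had a higher one. In edgeR's quasi-likelihood test, 8 of the 10 genes were lower with THZ1 and 1, CD74, was higher, calling a gene when its p-value, adjusted by Benjamini-Hochberg across the 16622 tested genes, was below 0.05. By the same rule 41.1% of all tested genes were lower and 43.5% higher, 84.5% in all. The median log2 fold change, THZ1 over DMSO (log2FC), of the 10 genes was −0.68, beside 0.03 over all genes tested. When a log2FC of 1.5 or more in size was also asked for, 2 of the 10 genes were lower, CIITA and HLA-DMB, and 0 were higher, against 12.9% and 24.6% of all genes. The libraries of the treatments did not overlap for any of the 10 genes, with 8 lower (41.3% of all genes) and 2 higher (43.4%), and 84.7% of all genes were separate in this way.

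**Figure D1:**
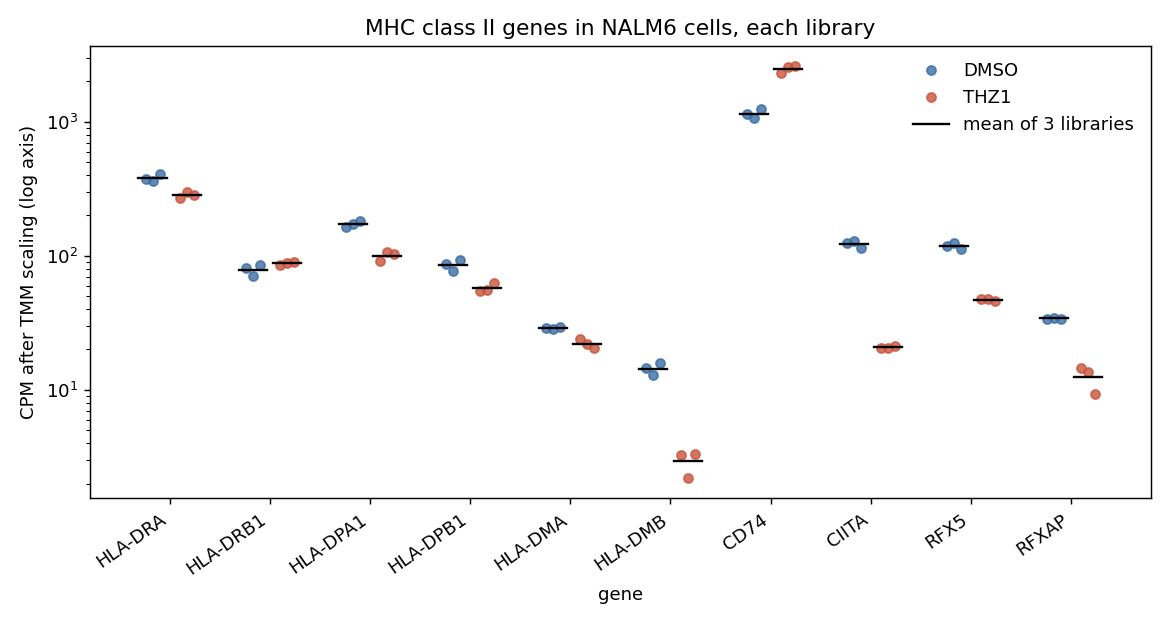
CPM after TMM scaling (log axis) of the 10 genes in each of the 3 DMSO-treated and 3 THZ1-treated libraries, with a black line at the mean of each group. CIITA falls from a mean of 123 to 20.7 CPM and HLA-DMB from 14.4 to 2.95 CPM, whereas CD74 rises from 1152 to 2494 CPM.

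All 3 transcription regulators were lower with THZ1. CIITA, on chromosome 16 from 10960079 to 11036878, had 126, 128 and 115 CPM in the DMSO-treated libraries and 20.4, 20.5 and 21.3 CPM in the THZ1-treated libraries. Every THZ1-treated library lay far below every DMSO-treated library, and the THZ1-treated libraries differed little from each other. The mean fell from 123 ± 7.18 CPM to 20.7 ± 0.477 CPM (SD, n = 3 libraries each), which is log2FC −2.57 (standard error, SE, 0.09, 95% interval −2.75 to −2.38). Only 3.10% of all genes tested had a lower log2FC. Over the other settings the log2FC of CIITA lay between −3.31, from log2(FPKM + 0.1), and −2.37. CIITA overlaps DEXI on the opposite strand over 10.7% of its exonic bases. The strand setting of the counting is not given in the sources used here, so how reads from the overlap were counted is not known. DEXI itself had 204 to 245 counts with DMSO and 226 to 259 counts with THZ1.

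RFX5, the subunit of the RFX complex that contacts DNA, lies on chromosome 1 from 151313116 to 151319802. It had 117, 124 and 113 CPM with DMSO and 47.5, 47.5 and 46.0 CPM with THZ1, so that no library of either treatment came near the other. Its log2 fold change was −1.33 (SE 0.08). RFXAP, the RFX-associated protein on chromosome 13 from 37393359 to 37403241, had 33.9, 34.5 and 34.0 CPM with DMSO and 14.6, 13.6 and 9.36 CPM with THZ1. The third THZ1-treated library was the lowest, and the log2FC of −1.45 (SE 0.13) ranged from −1.58 to −1.29 when each library was left out in turn. The adjusted p-values of CIITA, RFX5 and RFXAP were 5.9e-22, 4.5e-16 and 7.8e-12 in edgeR. The antisense RNA genes ENSG00000224645 and RFX5-AS1 overlap RFX5 on the opposite strand over 7.86% and 2.68% of its exonic bases, and ENSG00000224645 had 233 to 253 counts with DMSO and 46 to 55 counts with THZ1.

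The remaining factors of the class II promoter were taken from a list of 6 genes. RFXANK, the third subunit of the RFX complex, was lower (26.7 ± 3.06 CPM against 75.1 ± 10.6 CPM with DMSO, log2FC −1.49), so that all 3 RFX subunits fell by 1.33 to 1.49 on the log2 scale. CREB1, which binds the X2 box, was the lowest of the list at −1.56, and its relative ATF1 was lower at −0.37. Of the NF-Y subunits, NFYB and NFYC were lower (−0.62 and −0.25). NFYA, which makes the sequence contacts of NF-Y with CCAAT, was higher instead. It had 85.6, 92.5 and 79.0 CPM with DMSO and 189.8, 181 and 183 CPM with THZ1, log2FC 1.11 (SE 0.07). In all, 5 of the 6 factors were called lower and 1 was called higher by edgeR, beside 41.1% and 43.5% of all genes tested.

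The chains of the classical molecules had log2FC from −0.78 to 0.15, beside −2.57 for CIITA. HLA-DRA, the nearly monomorphic alpha chain of HLA-DR, on chromosome 6 from 32407655 to 32412823, had 377, 364 and 408 CPM with DMSO and 272, 298 and 286 CPM with THZ1. The groups were separate, with log2FC −0.43 (SE 0.07, 95% interval −0.56 to −0.29), a 1.34-fold lower level. HLA-DRB1, its polymorphic beta chain on chromosome 6 from 32545679 to 32557625, had 80.5, 70.6 and 85.7 CPM with DMSO and 85.7, 88.5 and 89.2 CPM with THZ1. The highest DMSO-treated and the lowest THZ1-treated library were nearly at the same level. HLA-DRB1 was not called, with log2FC 0.15 (95% interval −0.01 to 0.32, adjusted p = 0.0791 by edgeR), and its sign depended on the scaling, from 0.35 with upper quartile factors (adjusted p = 0.00024 by edgeR) to −0.09 with library sizes alone (adjusted p = 0.27 by edgeR). Without the third DMSO-treated library it was called higher, at 0.20 (adjusted p = 0.0149 by edgeR). HLA-DRB5 and the pseudogene HLA-DRB6 are near-identical to parts of HLA-DRB1, so the division of reads between them is uncertain.

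HLA-DPA1 and HLA-DPB1 encode the alpha and beta chains of HLA-DP and lie head to head on chromosome 6, from 33032346 to 33048552 on the minus strand and from 33043767 to 33057473 on the plus strand. HLA-DPA1 had 164, 172 and 182 CPM with DMSO and 91.1, 107 and 103 CPM with THZ1. HLA-DPB1 had 86.4, 77.0 and 92.9 CPM with DMSO and 54.8, 55.4 and 62.7 CPM with THZ1. Both chains were lower in every THZ1-treated library than in any DMSO-treated library, with log2FC of −0.78 (SE 0.08) and −0.57 (SE 0.09). The adjusted p-values of HLA-DRA, HLA-DPA1 and HLA-DPB1 were 1.1e-06, 4.2e-11 and 5e-07 in edgeR. HLA-DPA1 and HLA-DPB1 share 96 exonic bases, 1.67% and 1.84% of each gene.

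The subunits of the peptide exchanger HLA-DM moved unequally. HLA-DMA, on chromosome 6 from 32916390 to 32936871, had 28.9, 28.4 and 29.4 CPM with DMSO and 23.8, 22.1 and 20.5 CPM with THZ1. The log2FC was −0.38 (SE 0.11, adjusted p = 0.00179 by edgeR), and the call was lost with upper quartile factors (−0.19, adjusted p = 0.104 by edgeR). HLA-DMB, on chromosome 6 from 32902406 to 32908805, had 14.5, 12.9 and 15.8 CPM with DMSO and 3.29, 2.21 and 3.34 CPM with THZ1. Its highest THZ1-treated library was far below its lowest DMSO-treated library. The mean fell from 14.4 ± 1.46 CPM to 2.95 ± 0.636 CPM, log2FC −2.28 (SE 0.20, adjusted p = 4.6e-12 by edgeR), which rests on 157 to 187 counts with DMSO and 16 to 25 counts with THZ1. Over the other settings it lay between −3.41, from log2(FPKM + 0.1), and −2.08. The annotated read-through gene ENSG00000248993 shares 9.49% of the exonic bases of HLA-DMB and 6.35% of those of HLA-DMA and had 0 counts in every library. BRD2 overlaps 55 exonic bases of HLA-DMA on the opposite strand and rose from 331 ± 13.7 CPM to 1471 ± 42.5 CPM. The part of these overlaps in the result was not tested.

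CD74, the invariant chain on chromosome 5 from 149781200 to 149792532, had 1149.5, 1065 and 1241 CPM with DMSO and 2327, 2569 and 2587 CPM with THZ1. All THZ1-treated libraries were well above all DMSO-treated libraries, with log2FC 1.11 (SE 0.07, 95% interval 0.97 to 1.26, adjusted p = 3e-15 by edgeR). It was called higher under each of the 16 other settings without a fold threshold, between 0.81 and 1.31. Together the 6 HLA chains had 752, 725 and 813 CPM with DMSO and 530.5, 574 and 565 CPM with THZ1. For each count on these chains there were 1.47 to 1.53 counts on CD74 with DMSO and 4.39 to 4.58 with THZ1. Of the 4 tested monocyte and dendritic cell markers, LYZ fell from 2.48 ± 0.646 to 1.39 ± 0.767 CPM, CD1C rose from 0.804 ± 0.186 to 1.48 ± 0.113 CPM, and CD14 and CSF1R rose from 0.636 ± 0.0885 to 8.71 ± 1.10 CPM and from 4 to 136 counts over the group (ratio of shares 55.1, 95% counting interval 21.0 to 205). Their part in the CD74 result was not tested.

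**Figure D2:**
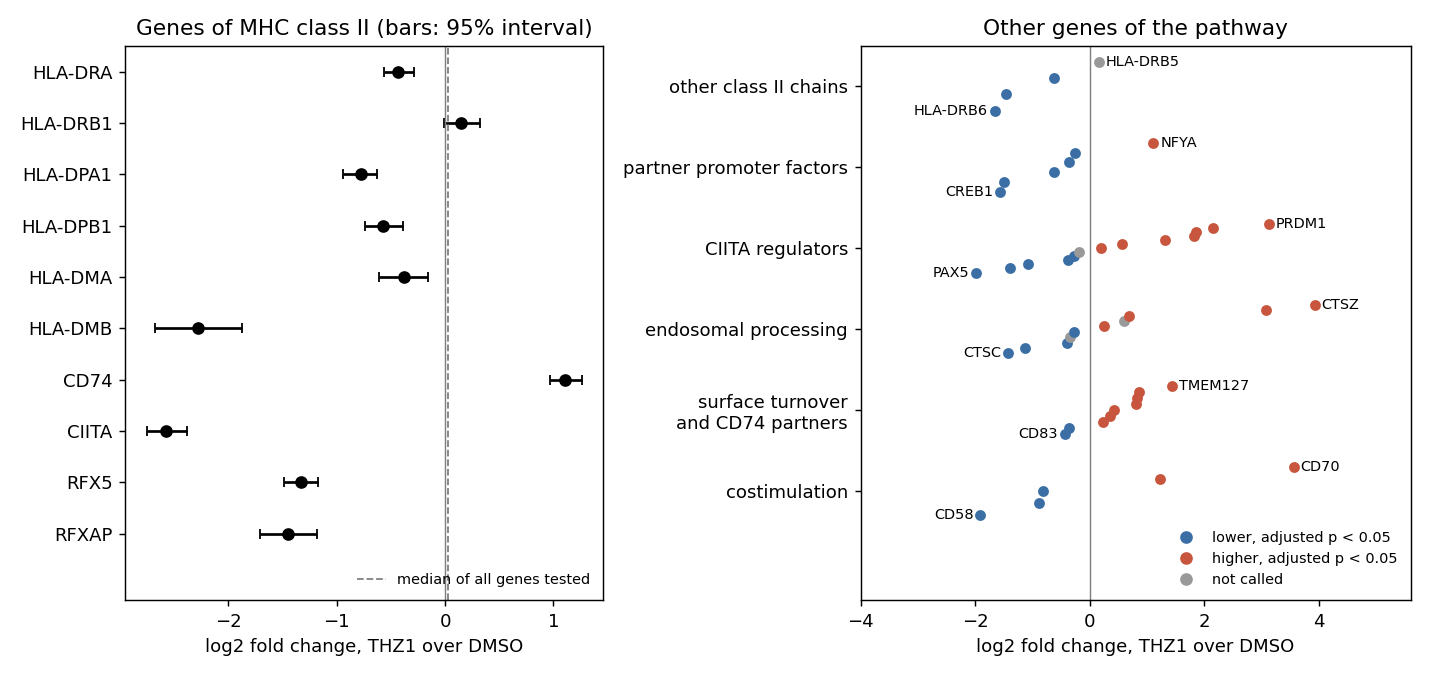
Log2 fold changes, THZ1 over DMSO, of the 10 genes with 95% intervals (left, dashed line at the median of all genes tested, 0.03) and of the tested genes of 6 further lists (right, each point a gene, colored by its call at an adjusted p-value below 0.05, with the lowest and highest gene of each list named). CIITA and HLA-DMB are lowest at −2.57 and −2.28 and CD74 is highest at 1.11, while the interval of HLA-DRB1 includes 0.

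Ratios of counts within a library do not depend on the scaling, and 4 of them were compared between the treatments by a two-sided exact permutation test, in which 3 libraries against 3 can give no p below 0.1. Counts are not per length, so only the change of a ratio is read. The log2 ratio of HLA-DMB over HLA-DMA was −1.0, −1.14 and −0.89 with DMSO and −2.83, −3.28 and −2.59 with THZ1. The beta chain thus lost a further 3.71-fold against its alpha chain, with no overlap between the groups (exact p = 0.1, adjusted p = 0.133 over the 4 ratios). From the FPKM values with a pseudocount of 0.1 the difference was −2.90 in place of −1.89 on the log2 scale. HLA-DRB1 moved the opposite way against HLA-DRA, from −2.28 ± 0.07 to −1.70 ± 0.05 (SD, n = 3), a difference of 0.58 with separate groups and the same exact p of 0.1. For HLA-DPB1 over HLA-DPA1 the difference was 0.22 and the groups overlapped (exact p = 0.2, adjusted p = 0.2). CD74 over HLA-DRA gave 1.61, 1.55 and 1.61 with DMSO and 3.10, 3.11 and 3.18 with THZ1, a 2.91-fold shift toward the invariant chain that was larger than the spread between libraries (exact p = 0.1, adjusted p = 0.133).

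**Figure D3:**
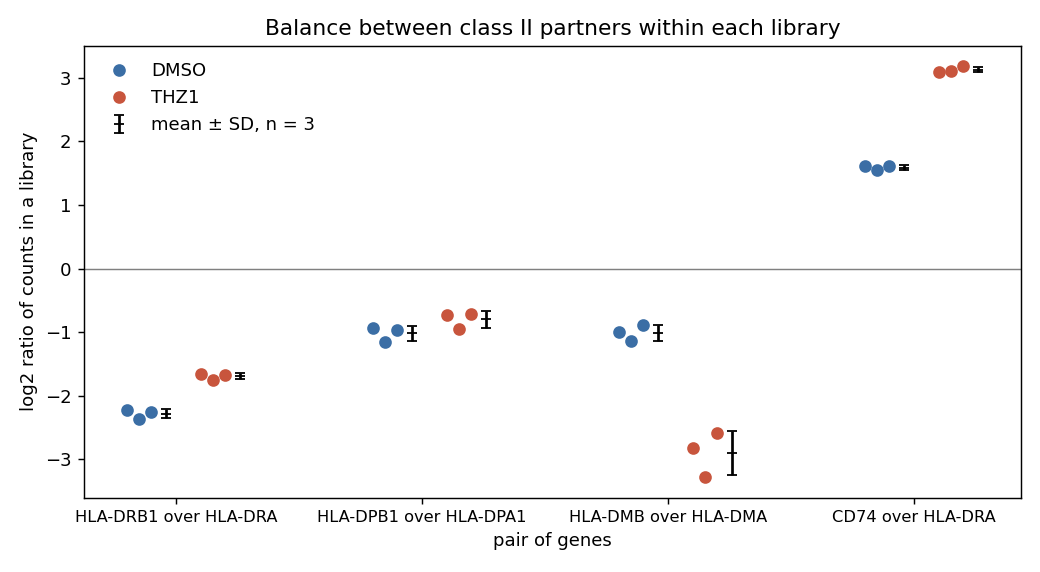
Log2 ratios of counts within each library for 4 pairs of genes, with the mean ± SD of the 3 libraries of each treatment beside the points. THZ1 shifts HLA-DMB over HLA-DMA by −1.89 and CD74 over HLA-DRA by 1.54, and the points of HLA-DPB1 over HLA-DPA1 overlap between treatments.

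Levels of different genes were compared per length, in the FPKM values of the second deposited table (mean ± SD, n = 3 libraries). With DMSO the order was HLA-DRA (884 ± 33.7 FPKM), CD74 (712 ± 17.4 FPKM), HLA-DRB1 (188 ± 11.8 FPKM), HLA-DPA1 (85.3 ± 3.17 FPKM) and RFX5 (72.9 ± 5.80 FPKM). HLA-DPB1 (45.4 ± 3.44 FPKM) and RFXAP (41.1 ± 0.924 FPKM) followed and overlapped, and below them lay HLA-DMA (32.0 ± 0.479 FPKM), CIITA (16.9 ± 0.718 FPKM) and HLA-DMB (9.47 ± 1.02 FPKM). With THZ1, CD74 stood first at 1247 ± 75.4 FPKM and HLA-DRA second at 566 ± 34.5 FPKM, so these genes exchanged places. HLA-DRB1 (175 ± 4.70 FPKM) and HLA-DPA1 (45.6 ± 3.69 FPKM) were at the third and the fourth place in both groups. HLA-DPB1 (28.7 ± 2.45 FPKM), RFX5 (26.6 ± 0.432 FPKM), HLA-DMA (22.6 ± 1.85 FPKM) and RFXAP (13.3 ± 3.30 FPKM) followed, and no neighbors overlapped. CIITA and HLA-DMB were last, as with DMSO, at 1.62 ± 0.0972 FPKM and 0.835 ± 0.291 FPKM. In this table the sorted values of libraries of the same treatment are nearly alike, so its spread within a treatment may be too small. The scale was read as log2(FPKM + 1). The lowest log2 value was 0.32 to 0.35 in the DMSO-treated libraries (1482 to 1597 genes) and 0 in the THZ1-treated libraries (267 to 286 genes). Low levels may thus not be on the same scale in both treatments, and the part of this in the FPKM differences was not tested.

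The other genes of the pathway came from 6 lists with 60 genes in all. Of the 47 tested, 22 were lower and 21 higher with THZ1, with a median log2FC of −0.18, beside 0.03 over all genes tested. These counts are near the shares of all genes tested, 41.1% lower and 43.5% higher, against which the counts of each list are also to be read. Among the other class II chains, 4 of 10 were tested and 3 were lower. HLA-DOA, the alpha chain of HLA-DO, which inhibits HLA-DM, fell from 49.4 ± 0.775 CPM to 17.8 ± 1.25 CPM (log2FC −1.47, SE 0.10, adjusted p = 2.2e-14 by edgeR). HLA-DQB1 fell from 10.95 ± 0.425 CPM to 7.15 ± 1.96 CPM (−0.62, adjusted p = 0.00232 by edgeR) and HLA-DRB6 was the lowest at −1.66, whereas HLA-DRB5 had 1.72 to 2.98 CPM with DMSO and 2.50 to 3.18 CPM with THZ1 (log2FC 0.16, not called). HLA-DQA1, HLA-DQA2, HLA-DQB2 and HLA-DOB were too low to be tested, with at most 18 counts in any library. HLA-DRB3 and HLA-DRB4 were not analysed here.

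Of 13 genes that are known to set CIITA transcription, 5 were lower, 7 higher and 1 not called, with a median log2FC of 0.19. PAX5, the B lineage factor, was the lowest. It had 545, 598 and 480.3 CPM with DMSO and 132, 139 and 140.2 CPM with THZ1, with no overlap and log2FC −1.98 (SE 0.08). PRDM1, which encodes BLIMP1, a repressor of CIITA in plasma cells, was the highest of the list at 3.13 (SE 0.25), although low in both groups, at 1.13 ± 0.252 CPM and 10.01 ± 0.730 CPM. IRF4 and IRF8 rose by 1.86 and 1.82 on the log2 scale. IRF1, an interferon-induced factor, fell by 0.28, while the interferon-gamma receptor chain IFNGR2 rose by 1.32 and IFNGR1 was not called (−0.18). SPI1, which encodes PU.1, was higher at 0.19. The adjusted p-values of PAX5, PRDM1 and SPI1 were 6.6e-21, 5e-13 and 0.0322 in edgeR.

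The listed genes of endosomal processing, not all of them proteases, were split, with 4 of 10 tested lower, 4 higher and 2 not called. CTSS, which encodes cathepsin S, the main protease for the last steps of CD74 cleavage in B cells, fell from 45.8 ± 1.95 CPM to 20.9 ± 2.01 CPM (log2FC −1.13, SE 0.10). CTSC was the lowest of the list at −1.43. SPPL2A, the intramembrane protease that clears the stub of CD74, rose from 13.5 ± 1.44 CPM to 21.7 ± 1.58 CPM (0.68, SE 0.13). CTSZ, a carboxypeptidase, was the highest, with 0.992, 0.492 and 0.506 CPM with DMSO and 9.47, 11.6 and 9.76 CPM with THZ1 (3.93, SE 0.28). IFI30, the thiol reductase that opens disulfide bonds of antigens, rested on 3 to 9 counts with DMSO and 24 to 32 counts with THZ1 (3.08). CTSL had 0 counts in all libraries. The adjusted p-values of CTSS, SPPL2A, CTSZ and IFI30 were 1.4e-11, 1.5e-05, 4.2e-14 and 1.3e-08 by edgeR.

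The list of genes for surface turnover and partners of CD74 gave 7 higher and 2 lower of 9 tested, with a median log2FC of 0.42. The higher genes include AP1S1 (0.36), AP2M1 (0.42) and SUSD6 (0.80), so the count is not one of genes that act on class II alone. MARCHF1 and CD83 oppose each other, since the ubiquitin ligase MARCHF1 removes class II from the surface and CD83 blocks it. MARCHF1 had 10.2 to 16.5 CPM with DMSO and 8.56 to 12.2 CPM with THZ1 (log2FC −0.37, adjusted p = 0.0455 by edgeR), and CD83, the lowest of the list, had 11.7 to 13.8 CPM and 5.95 to 11.97 CPM (−0.43, adjusted p = 0.026 by edgeR). Both were called lower although their groups overlapped. MARCHF8, also on the list, had 28.7 to 34.3 CPM with DMSO and 32.7 to 40.1 CPM with THZ1. It was called higher, also with overlapping groups (0.23, adjusted p = 0.0395 by edgeR). MIF, a cytokine that binds CD74, rose by 0.82 on the log2 scale, and its coreceptor CXCR4 by 0.86, from 286 ± 12.8 CPM to 518 ± 16.2 CPM. TMEM127, a membrane protein, was the highest at 1.43. CD44, a partner of CD74 at the surface, had at most 3 counts in any library.

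Position in the genome is another property that the chain genes share. From BTNL2 to COL11A2, the class II region of chromosome 6, 20 genes were tested, of which 13 were lower and 4 higher, with a median log2FC of −0.46, beside 41.1% lower, 43.5% higher and a median of 0.03 over all genes tested. The 14 genes that are not among the 10 had the same median of −0.46, with 8 lower and 4 higher, to be read against the same shares. These 14 still include genes and pseudogenes of class II chains. HLA-DRB6 (−1.66), HLA-DOA (−1.47), HLA-DQB1 (−0.62) and the antisense gene HLA-DQB1-AS1 (−1.24) were lower, and HLA-DRB5 was not called (0.16). Of the rest, PSMB9, TAP2, PSMB8 and PSMB8-AS1 were lower, TAP1 was not called, and HLA-Z, ENSG00000263756, COL11A2 and BRD2 were higher. Of the 20 genes, the 3 lowest were PSMB9, HLA-DMB and TAP2. PSMB9 is a subunit of the immunoproteasome (from 55.8 to 4.63 CPM, log2FC −3.59). TAP2 is a chain of the peptide transporter of class I (from 35.9 to 10.98 CPM, −1.71). TAP1, next to PSMB9 and TAP2, had a log2FC of 0.13. The 3 highest were the pseudogene HLA-Z, with 1 count in all DMSO-treated libraries and 52 in all THZ1-treated libraries (ratio 84.3, 95% counting interval 14.5 to 3391), the non-coding gene ENSG00000263756 (2.86), which lies within BRD2 on the opposite strand, and COL11A2 (2.51). Whether reads of BRD2 count toward ENSG00000263756 was not tested, and the strand setting of the counting is not given. BRD2, which lies between HLA-DMA and HLA-DOA, was higher at 2.15. BRD2 is thus a gene called higher between neighbors that were called lower.

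**Figure D4:**
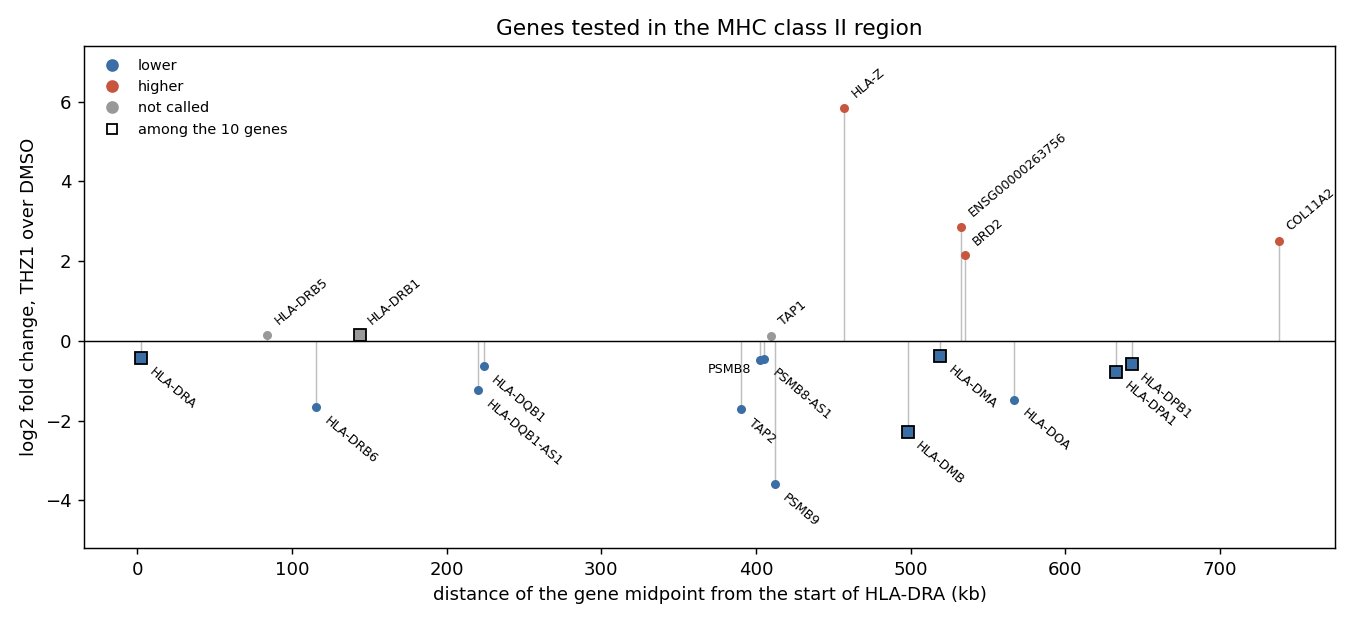
Log2 fold changes, THZ1 over DMSO, of the 20 tested genes from BTNL2 to COL11A2 against the distance of the gene midpoint from the start of HLA-DRA in kb, with squares for the chain genes among the 10 and color for the call. Of the 20 genes, 13 lie below 0 and are called lower, and BRD2 at 2.15 stands between HLA-DMA at −0.38 and HLA-DOA at −1.47. The height of HLA-Z is a fitted value that depends on the prior count, as it had 1 count with DMSO.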

How the data were processed

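Total RNA of 6 NALM6 libraries was sequenced. Per the labels and the study's methods, reads were filtered with cutadapt, mapped to GRCh37 with STAR and counted per gene with HTSeq, and the authors deposited these raw counts. The annotation and the strand setting are not given in the sources used here. A second deposited table holds FPKM values from RSEM on a log2 scale. Its libraries look scaled to a common distribution within each treatment, a step that no source names, and its columns of p-values and fold changes were not used.

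Counts of 16622 genes that passed filterByExpr were tested with edgeR 4.0.16 (TMM factors, quasi-likelihood test, R 4.3.3) between treatments, with Benjamini-Hochberg adjustment over all of them and a threshold of 0.05 at any fold. The fold threshold of 1.5 on the log2 scale, DESeq2 1.42.0, limma 3.58.1 on the log2 FPKM values and other scalings and filters were alternatives. Ratios used log2(counts + 0.5). At these depths 3 counts equal 0.253 CPM or less in DMSO-treated and 0.415 CPM or less in THZ1-treated libraries, and counting intervals cover counting error only. The code was tested on simulated data. Gene positions are from GENCODE 44 on GRCh37. The genes and lists were chosen with earlier results of these data known. All 10 genes were named, with at least the lowest and highest tested gene of each further list and the 3 lowest and 3 highest of the class II region. Single values of some listed genes are not reported here. Promoter sequences are from RefSeq (GRCh38.p14).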

Additional observations from a re-analysis of the deposited data

How the results depend on the processing

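CD74 and all genes called lower except HLA-DMA kept direction and call under each other scaling, filter, tool and left-out library tried, but under the fold threshold CIITA and HLA-DMB alone were still called. With upper quartile factors 7 genes were lower, without HLA-DMA. With a log2 fold change of at least 1.5, the 8 lower genes became 2 and the 1 higher became 0, and in the further lists 22 lower became 4 and 21 higher became 7. HLA-DRB1 joined CD74 as the second gene called higher, making 2, with RLE factors, upper quartile factors, DESeq2 and 10 counts in every library (0.22, 0.35, 0.22 and 0.29), and without the third DMSO-treated library. Leaving out each library in turn thus gave 1 to 2 higher genes. HLA-DRB1 was below 0, and not called, with library sizes alone (−0.09) and in the 3 fits of limma to log2 FPKM (−0.10 each). Scaling moved the median of all genes by −0.25 (library sizes alone) to 0.19 (upper quartile). Relative to that median, 8 genes lay below and 2 above, counted by sign without a test. This count was chosen after seeing the data, and since a scaling shifts all genes alike, it is the same under each scaling by construction. The cause of these changes was not tested. Libraries with the same number did not deviate together (correlations −0.004, 0.000969 and 0.0206). With the replicate number as a block, 8 genes were lower and 1 higher as without it, and over all genes 6786 were lower and 7181 higher in place of 6826 and 7224. In the paired form of the ratio test the smallest possible p is 0.25. With log2(FPKM + 0.1), CIITA (−3.31), HLA-DMB (−3.41) and the ratio of HLA-DMB over HLA-DMA (−2.90) moved by over 1.5 times in fold. The lowest FPKM values differ between the treatments, as given above, and their part in these shifts was not tested. Among the 10 genes HLA-DMB had the fewest counts, 16 to 25 with THZ1. Libraries with fewer counts than these were also found for IFI30, CSF1R, HLA-Z, HLA-DRB6, CD14, CD1C and LYZ. The same holds for CTSZ and PRDM1, the highest of their lists, with 6 to 12 and 10 to 16 counts with DMSO.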

Other observations

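Costimulatory and adhesion genes, which act beside class II molecules when T cells are met, were split in direction. Of 9 listed, 5 were tested, with 3 lower and 2 higher with THZ1 by edgeR, beside 41.1% and 43.5% of all genes tested. CD58, the ligand of CD2 on T cells, was the lowest, at 31.8 ± 0.974 CPM with DMSO against 8.46 ± 1.12 CPM with THZ1 (SD, n = 3 each, log2 fold change −1.91). ICOSLG and TNFSF4, which encodes OX40 ligand, were lower at −0.81 and −0.88. CD70, the ligand of CD27, was the highest, with 2.73, 1.64 and 1.69 CPM with DMSO and 24.2, 23.7 and 24.1 CPM with THZ1 (3.56). ICAM1 rose from 16.5 ± 2.11 CPM to 38.5 ± 3.61 CPM (1.22). The best known costimulators of B cells, CD80 and CD86, had at most 1 and 5 counts in any library and were not tested, and CD40 had at most 4.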
